A study of Mus musculus with 20 samples.

Results

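Lymphomas carrying both a Bcl2 transgene and Myc were compared, over all genes, with B cells of normal mouse spleen. The comparison takes 12 of the 20 samples of the series: 8 labelled VavPBcl2/Myc lymphoma and 4 labelled normal spleen, chosen by genotype from a table of counts per gene. Every sample held cells enriched with magnetic beads against B220, a form of the CD45 protein carried by B cells, and every mouse was on the C57BL/6 background. The 8 other samples, VavPBcl2/vector lymphomas, are used to estimate the spread between samples and for levels set beside the comparison. Tissues were taken directly from mice without culture, and polyadenylated RNA was sequenced. The normal spleen samples carry no transgene in their labels, so Bcl2 transgene, Myc and malignancy all change together between the groups, and their parts cannot be told apart here. In the VavPBcl2 model the Vav promoter drives Bcl2 in blood cells of many lineages, not in B cells alone. The sources used here do not give what drives Myc, or whether the count table would register transcripts of the transgenes. Nothing states whether replicates are separate animals; the p-values reflect sample-to-sample spread, which may be technical. Age and sex of the mice are not stated in the labels.

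Myc is a transcription factor that binds DNA as a dimer with Max, often at the E-box, and is known for raising the expression of genes for ribosome assembly, nucleotide and amino acid metabolism and the cell cycle. Bcl2 blocks the mitochondrial pathway of apoptosis and is known to cooperate with Myc in lymphoma, because Myc by itself also promotes cell death. Resting splenic B cells are mostly follicular and marginal zone cells. They carry the B cell receptor with its coreceptors and move between compartments by chemokine and sphingosine phosphate receptors.

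Normal samples held 43.0 to 52.9 M counts assigned to genes (M for 1e+06) and Myc samples 33.5 to 45.7 M. Levels are given in CPM, counts per 1e+06 of the scaled library, and differences as log2 fold changes, Myc minus normal. In the 12 samples the first principal component of log2 CPM held 46.3% of the variance, with the normal samples from -136.6 to -83.2 and the Myc samples from 20.2 to 159.1. Myc replicate 5 lay apart at 159.1, and the next Myc sample was at 57.1. Summed cytosolic ribosomal protein genes took 249166 CPM in replicate 5 and at most 61938 CPM in the other Myc samples. Normal replicate 1 came from a later sequencing run, and the other 11 samples from earlier ones. Mitochondrially encoded genes held 0.758% of its gene counts and 5.03 to 6.46% in the other normal samples. Vector replicates 1 to 6 also came from later sequencing, and vector replicates 7 and 8 from earlier runs. The groups also differed in sex genes, with a pair of Y chromosome genes both at 5 CPM or more in 0 of 4 normal and 5 of 8 Myc samples. B cell markers were present in both groups: 20 pan-B-cell genes summed to 10180 to 11965 CPM in normal samples and to 2600 to 8330 CPM in Myc samples. Erythroid markers summed to 329 to 3753 CPM in normal samples and to 7639 to 87699 CPM in Myc samples, and neutrophil markers to 142 to 1095 CPM and to 1891 to 18382 CPM. RNA of other cells was therefore measured in the Myc samples beside that of B cells, and its part in the differences that follow was not tested.

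Of 17824 genes tested, 3831 (21.5%) were called higher in Myc lymphomas and 3194 (17.9%) lower by edgeR's quasi-likelihood test at an adjusted p under 0.05. At least 2-fold differences were reached by 2898 of the former and 1684 of the latter. Differences of 8-fold or more were found for 671 genes called higher and 118 called lower. The median log2 fold change over all tested genes was 0.08. All 8 Myc samples lay above all 4 normal samples for 2338 genes (13.1%) and below them for 2546 (14.3%). Within the earlier runs, which leave 3 normal samples and 2 of the 8 vector samples, 12.7% of genes were called higher and 7.97% lower. Leaving out normal replicate 1 alone gave 16.2% and 11.1%. Of the 21 named genes whose calls were lost within the earlier runs, 14 also lost them without normal replicate 1 alone, and Ccnd2, Ccnd3, Ctps2, Ezh1, H2-DMb2, Pax5 and Ptprc did not. Without Myc replicate 5 the shares were 22.2% and 19.6%. The counts for each gene list below are to be read against these shares.

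**Figure D1:**
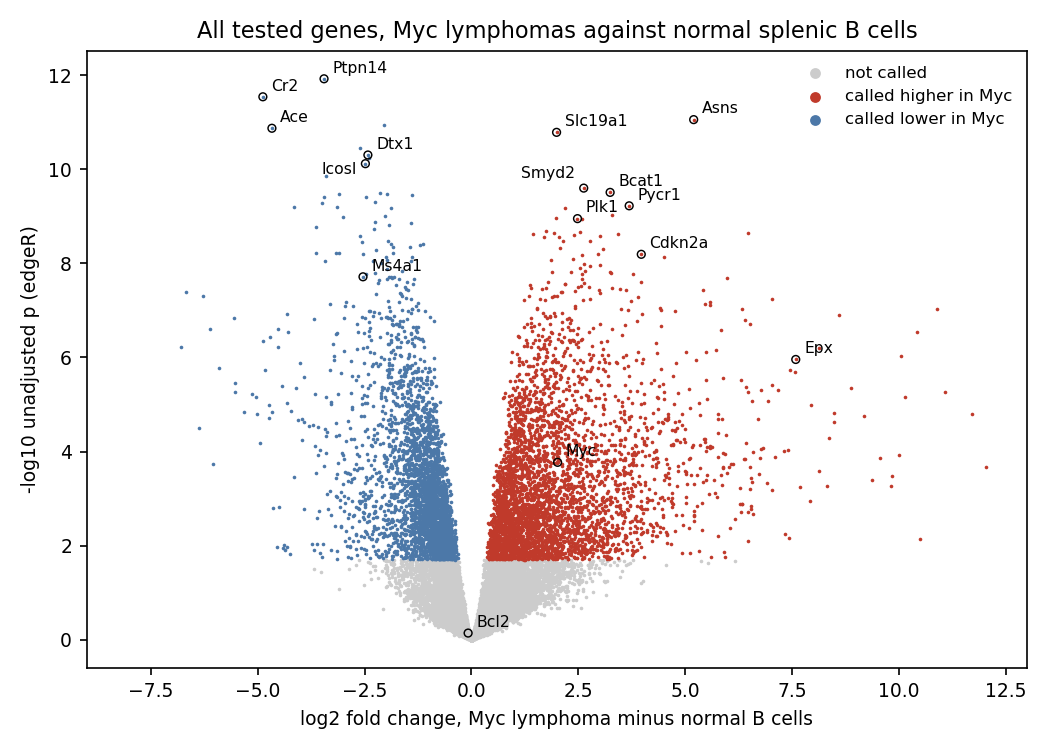
Log2 fold change, Myc lymphoma minus normal B cells, against -log10 of the unadjusted edgeR p for each of the 17824 tested genes. Red points were called higher in Myc lymphomas (3831) and blue points lower (3194). Asns and Slc19a1 lead the genes called higher by p, and Ptpn14 and Cr2 those called lower.

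**Figure D2:**
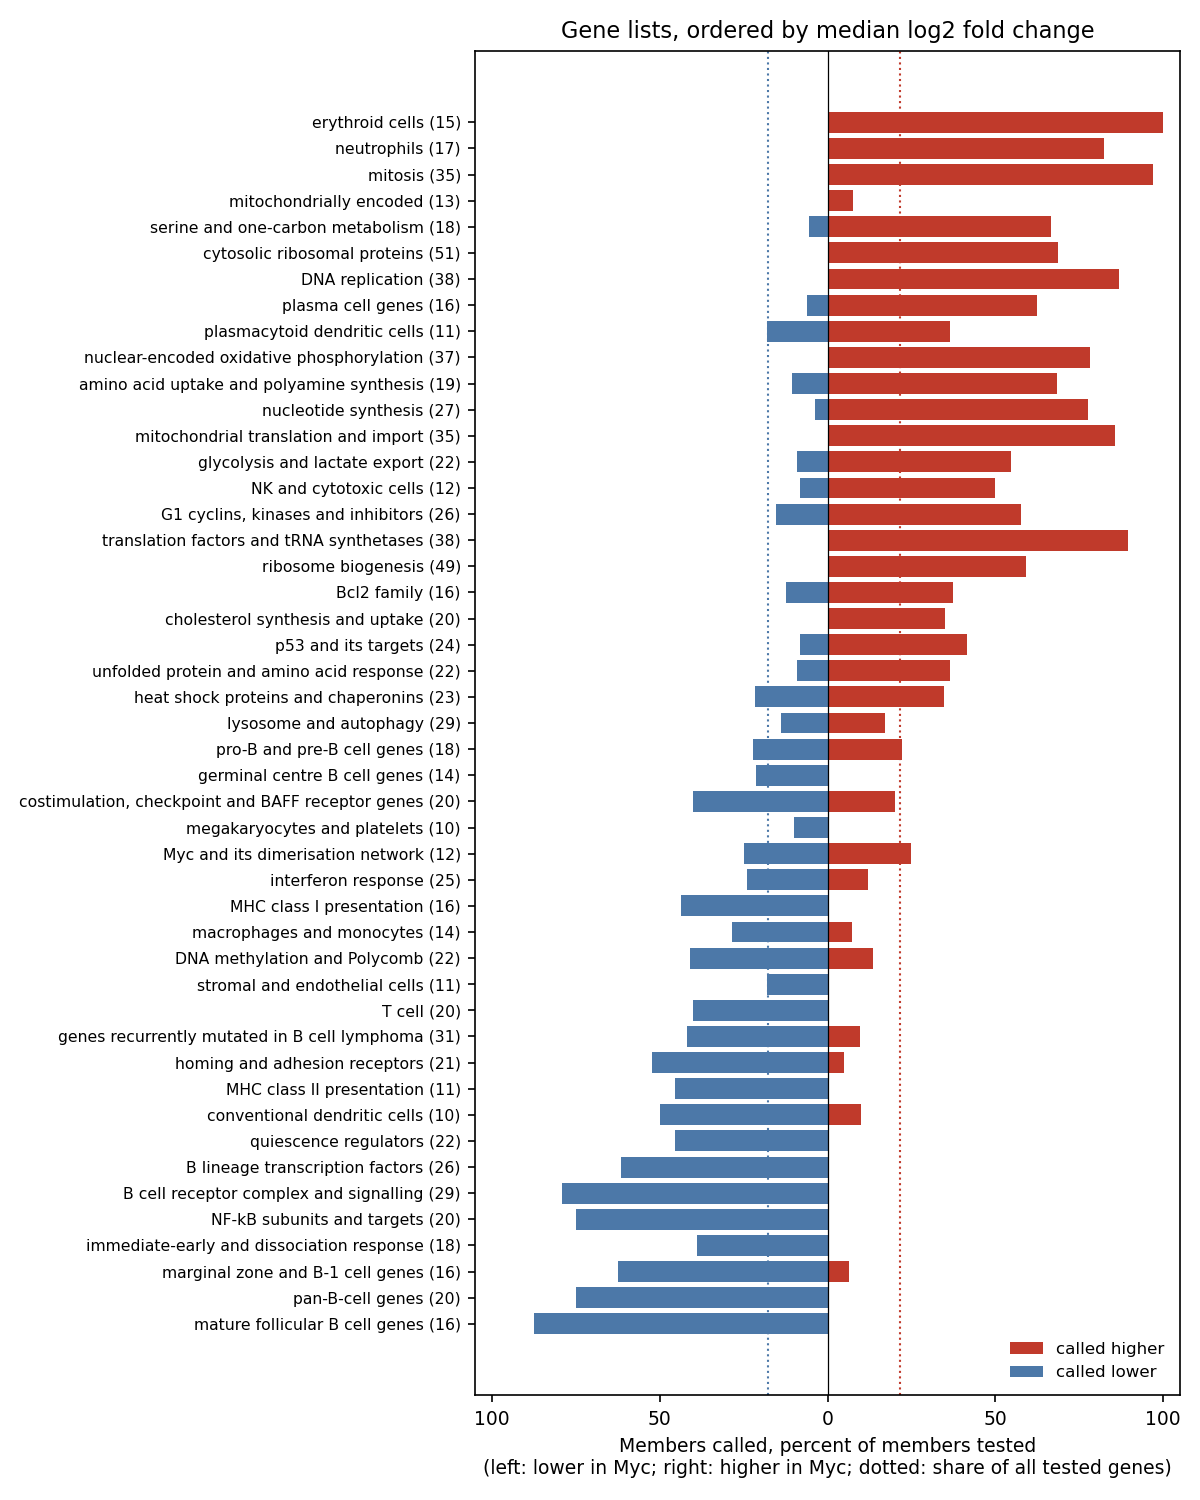
Percent of the tested members of each gene list called higher (red, to the right) or lower (blue, to the left), with the number tested in brackets and lists ordered by median log2 fold change. Dotted lines mark the shares of all tested genes (21.5% and 17.9%). Erythroid, mitosis and translation lists extend to the right, and the lists of B cell receptor, follicular and pan-B-cell genes to the left.

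Myc itself was measured at 229, 218, 179 and 343 CPM in the normal samples and at 313 to 1646 CPM (median 909) in the Myc samples. Replicate 5, at 313 CPM, was the only Myc sample inside the normal range, and the other 7 lay above it. The log2 fold change was 2.01 ± 0.44 (SE), adjusted p = 0.00152. In vector lymphomas Myc ranged over 48.3 to 226 CPM, and the fitted Myc minus vector difference, which shares the same Myc samples, was 3.05 ± 0.35 (SE), adjusted p = 1.22e-06. All Myc samples came from earlier runs and vector replicates 1 to 6 from later ones, so group and run largely change together in that difference. Bcl2 was at 122, 116, 138 and 128 CPM in normal and 75.6 to 213 CPM (median 110.2) in Myc samples, with overlapping groups and a log2 fold change of -0.08 ± 0.21 (SE), adjusted p = 0.79. Among 12 tested genes of the Myc dimerisation network, 3 were called higher and 3 lower, and the median was -0.18. These counts are near the shares of all tested genes, 21.5% higher and 17.9% lower. Without normal replicate 1, 3 of 13 were called higher and 1 lower. Among Max partners that oppose Myc, Mxi1 rose by 1.43 ± 0.20 (SE) and Mxd3 by 1.58 ± 0.39, while Mnt changed by -0.67 ± 0.23. Mycl, a paralogue of Myc, fell from 11.5 to 18.2 CPM to 2.45 to 11.1 CPM (median 5.27), with no overlap. Zbtb17, which encodes the Myc partner Miz1, changed by -0.59. The calls for Mnt and Zbtb17 were lost within the earlier runs, at adjusted p = 0.13 and 0.10.

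Amino acid and folate metabolism held 5 of the 8 genes named for the smallest p among those called higher. Asns, asparagine synthetase, was at 2.03, 4.81, 2.74 and 1.88 CPM in the normal samples and at 53.1 to 149 CPM (median 106) in the Myc samples. Its groups were far apart, with a log2 fold change of 5.20 ± 0.39 (SE), adjusted p = 4.80e-08. Slc19a1, the reduced folate carrier, rose from 12.3 to 17.1 CPM to 48.7 to 69.6 CPM (median 61.9), a log2 fold change of 1.99 ± 0.16 (SE), adjusted p = 4.89e-08. Bcat1, which transaminates branched-chain amino acids, rose from 1.19 to 2.25 CPM to 8.88 to 25.4 CPM (median 14.3), by 3.24 ± 0.30. Pycr1, which makes proline, and Prodh, which breaks it down, both rose, by 3.69 ± 0.35 and 3.30 ± 0.32. None of these genes had a normal sample at or above the lowest Myc sample. Asns in vector lymphomas ranged over 17.8 to 43.3 CPM, and Slc19a1 over 10.5 to 15.2 CPM. Other genes with the smallest p were Smyd2, a lysine methyltransferase (2.63 ± 0.24), Tmbim1 (2.18 ± 0.21) and Cln6, a protein of the endoplasmic reticulum (1.98 ± 0.19).

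Of 18 serine and one-carbon genes, 12 were called higher and 1 lower, with a median of 1.46. Sfxn1, the mitochondrial serine carrier, rose from 39, 42.2, 40.6 and 41.9 CPM to 96.9 to 131 CPM (median 110.3). Its log2 fold change was 1.45 ± 0.15 (SE), adjusted p = 9.94e-07. Shmt2 and Shmt1, the mitochondrial and cytosolic enzymes that move a carbon from serine to folate, rose by 1.69 ± 0.17 and 1.86 ± 0.21. In the normal samples Shmt2 was at 68, 74, 84 and 74.4 CPM, and in the Myc samples at 185 to 311 CPM (median 241). The serine synthesis enzymes Phgdh and Psat1 rose by 1.57 ± 0.22 and 1.88 ± 0.26, and the mitochondrial folate enzyme Mthfd2 by 1.56 ± 0.22. No Myc sample overlapped the normal samples for any of these 6 genes. Amt, of the glycine cleavage system, was the member called lower, at -1.76. It was at most 2.16 CPM in any normal or Myc sample, and its call was lost within the earlier runs (adjusted p = 0.11).

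Nucleotide synthesis had 21 of 27 members called higher and 1 lower, with a median of 1.06. Uck2, the uridine-cytidine kinase, was at 18.7, 20.7, 19.6 and 20.8 CPM in normal samples and at 63.9 to 107 CPM (median 84.2) in Myc samples, a log2 fold change of 2.05 ± 0.21 (SE), adjusted p = 1.01e-06. Gart, of purine synthesis, Prps1, which makes the ribose donor, and Ctps, CTP synthase, rose by 1.22 ± 0.15, 1.23 ± 0.17 and 1.31 ± 0.17. Ctps2, the second CTP synthase gene, was the member called lower (-0.70), and that call was lost within the earlier runs (adjusted p = 0.061). Of 19 genes for amino acid uptake and polyamine synthesis, 13 were called higher and 2 lower, with a median of 1.08. Slc7a5, the transporter of large neutral amino acids, rose from 32.9 to 37.2 CPM to 104 to 328 CPM (median 183), by 2.54 ± 0.29. Srm, spermidine synthase, was at 30.3, 36, 41.9 and 38.3 CPM in normal and 121 to 408 CPM (median 148) in Myc samples, and rose by 2.33 ± 0.31. Odc1, the first enzyme of polyamine synthesis, rose by 2.15 ± 0.32 and Slc43a1, a second neutral amino acid transporter, by 2.71 ± 0.42. The 2 members called lower were Sat1, which starts polyamine breakdown (-0.99), and Sms, spermine synthase (-0.53). The call for Sms was lost within the earlier runs (adjusted p = 0.25).

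**Figure D3:**
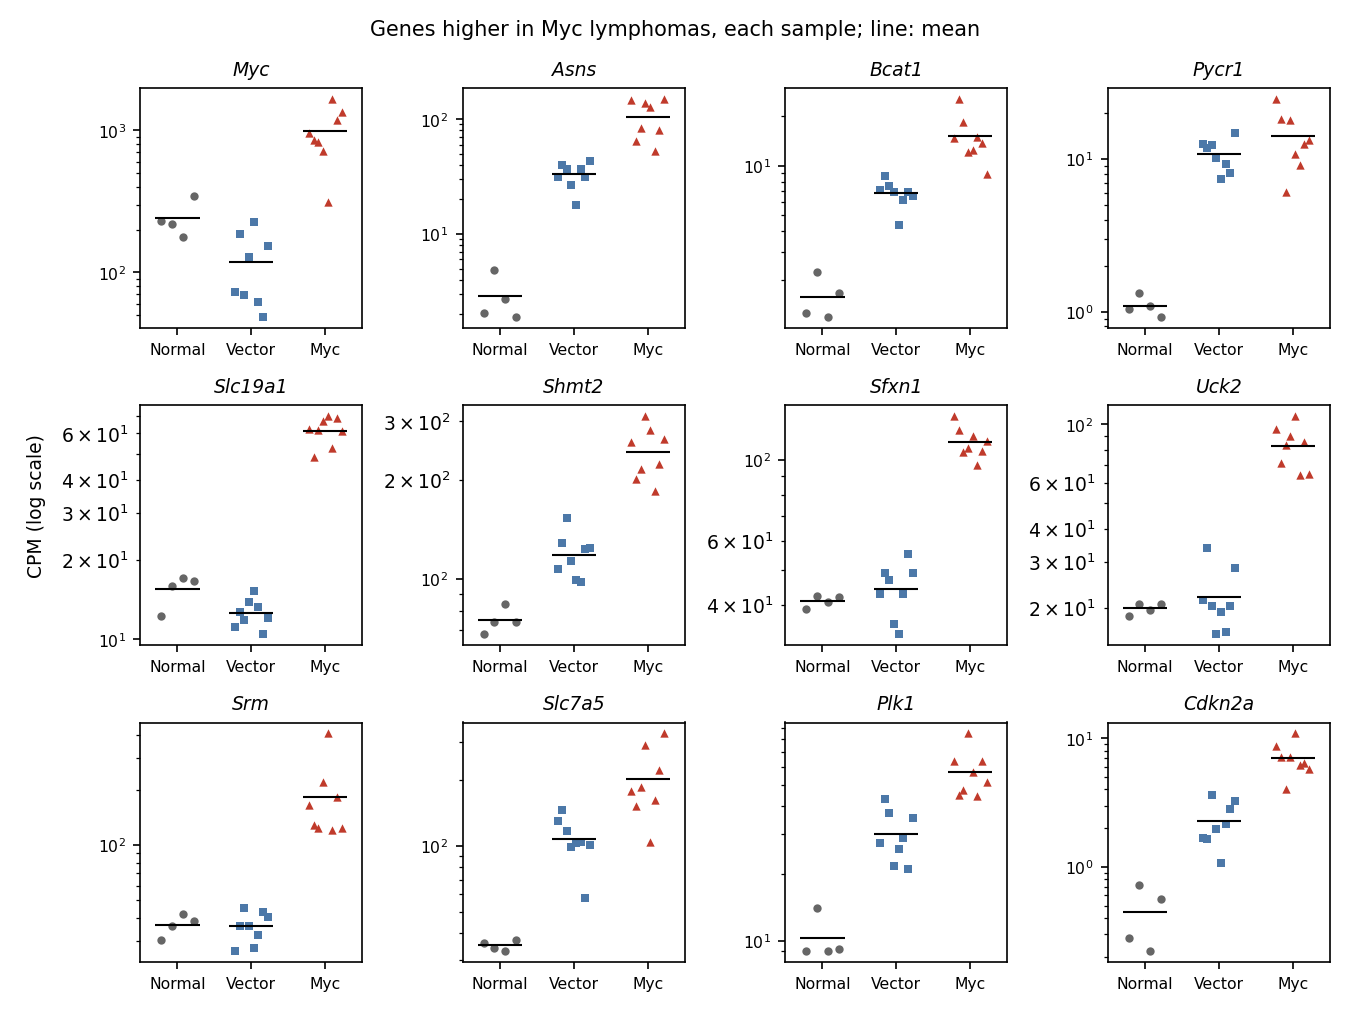
CPM on a log scale in each normal, vector and Myc sample for 12 genes called higher in Myc lymphomas, with a line at the group mean. Asns lies between 1.88 and 4.81 CPM in normal samples and between 53.1 and 149 CPM in Myc samples, and Myc replicate 5 is the lowest Myc sample for Myc itself.

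Promoters of these groups were read from the RefSeq promoter table (build GRCm38.p6), which spans 250 bases before to 50 after each start. The motifs searched, on both strands, were the E-box CACGTG, to which Myc and Max bind, and the E2F type letters, TTGGCGC or TTCCCGC. Among 32851 promoters, 7.2% held the E-box and 6.8% an E2F type motif. For genes tested the shares were 9.5% and 11.1%, for genes called higher 10.7% and 12.7%, and for genes called lower 8.7% and 9.5%. Ribosome biogenesis promoters held the E-box in 18.5% and nucleotide synthesis promoters in 24.1%, while none of 16 serine and one-carbon promoters did. DNA replication promoters held an E2F type motif in 51.4% and the E-box in 13.5%. In ribosome biogenesis, nucleotide synthesis and serine and one-carbon promoters the E2F type shares were 16.7%, 24.1% and 31.2%. These shares describe letters in a window and are no sites of binding. The windows below are given from 150 bases before to 30 after the start, with the E-box in capitals, for the members called higher with the smallest p that hold it.
Tyms: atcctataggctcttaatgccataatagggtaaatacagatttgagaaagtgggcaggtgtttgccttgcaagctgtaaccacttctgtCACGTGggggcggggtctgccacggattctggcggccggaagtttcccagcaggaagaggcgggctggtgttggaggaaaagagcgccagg
Slc43a1: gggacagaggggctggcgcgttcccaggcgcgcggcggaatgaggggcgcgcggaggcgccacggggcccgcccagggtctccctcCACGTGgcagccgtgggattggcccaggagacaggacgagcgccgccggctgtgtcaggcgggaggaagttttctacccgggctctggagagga
Utp4: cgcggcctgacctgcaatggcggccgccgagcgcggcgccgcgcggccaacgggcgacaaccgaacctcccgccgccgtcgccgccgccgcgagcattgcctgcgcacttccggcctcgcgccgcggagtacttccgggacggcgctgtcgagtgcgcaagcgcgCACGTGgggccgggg
Nle1: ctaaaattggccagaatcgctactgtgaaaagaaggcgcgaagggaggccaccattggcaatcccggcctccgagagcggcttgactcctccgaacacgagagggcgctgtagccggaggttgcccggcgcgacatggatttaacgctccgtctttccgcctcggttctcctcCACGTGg
Tyms, thymidylate synthase, lies on the minus strand (chr5:30073596-30073775) and its E-box starts 61 bases before the start of the gene. For Slc43a1 (chr2:84840173-84840352, plus strand) it starts 64 bases before. In Utp4 (chr8:106893490-106893669, plus strand) and Nle1 (chr11:82908366-82908545, minus strand), both genes of ribosome assembly, it lies 15 and 23 bases after the start. The log2 fold changes of these genes were 2.30 for Tyms, 2.71 for Slc43a1, 0.91 for Utp4 and 0.85 for Nle1. For the cell cycle lists the E2F type motif is in capitals.
Cdkn2a: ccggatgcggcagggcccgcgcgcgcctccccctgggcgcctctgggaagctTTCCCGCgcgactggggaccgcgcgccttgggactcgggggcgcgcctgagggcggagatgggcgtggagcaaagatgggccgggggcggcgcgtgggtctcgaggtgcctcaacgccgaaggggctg
Mcm6: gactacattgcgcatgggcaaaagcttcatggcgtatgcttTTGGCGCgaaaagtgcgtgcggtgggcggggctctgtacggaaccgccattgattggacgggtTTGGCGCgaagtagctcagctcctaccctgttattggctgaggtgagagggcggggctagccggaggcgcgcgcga
Cdkn2a (chr4:89294590-89294769, minus strand) has 2 promoters in the table, of which this window holds the motif 98 bases before its start. Mcm6, a subunit of the replicative helicase (chr1:128359676-128359855, minus strand), has it 109 and 46 bases before. The log2 fold change of Mcm6 was 1.30, and that of Cdkn2a 3.97.

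Ribosome and translation genes moved in the same direction but differed in how far they rested on single samples. Ribosome biogenesis had 29 of 49 members called higher and none lower, with a median of 0.69. Wdr12, which acts in assembly of the large subunit, rose from 23 to 29.2 CPM to 42.9 to 102 CPM (median 60.8) and Utp4, of small subunit assembly, from 33.2 to 37.1 CPM to 55.7 to 83.7 CPM (median 61.4). Their log2 fold changes were 1.33 ± 0.20 and 0.91 ± 0.15, with no overlap. Nhp2 and Nop16 rose by 2.37 ± 0.37 and 1.51 ± 0.23. The nucleolar protein gene Npm1 rose by 1.07 ± 0.22, while Ncl, nucleolin, did not pass the test (0.74 ± 0.30 (SE), adjusted p = 0.0559). Translation factors and tRNA synthetases had 34 of 38 called higher, none lower, and a median of 0.78. Examples are Gars (1.33 ± 0.16) and Kars (1.06 ± 0.17), the glycyl and lysyl synthetases, and Eif5a (1.53 ± 0.23), the factor that carries hypusine made from spermidine.

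Cytosolic ribosomal protein genes had 35 of 51 members called higher and none lower, with a median of 1.36. Rplp0 was at 1289, 1879.5, 2245 and 1907 CPM in normal samples and at 3388 to 13871 CPM (median 4111) in Myc samples, and the highest value was in replicate 5. Without replicate 5 the median of the list was 0.78, and 29 members were called higher. Within the earlier runs 3 members were called higher. Without normal replicate 1, which had the lowest summed level of these genes (26022 CPM), 19 were. Reads placed in more than 1 position were not counted to genes, so members with near-identical pseudogenes are uncertain.

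Nuclear-encoded oxidative phosphorylation had 29 of 37 members called higher, none lower, with a median of 1.13, and mitochondrial translation and import 30 of 35 and none, with a median of 0.92. C1qbp, a protein of the mitochondrial matrix, rose from 48.9, 69.6, 64.2 and 63.6 CPM to 171 to 609 CPM (median 198), by 2.08 ± 0.33. Timm9, an import chaperone, Ndufv1, of complex I, and Atp5b, of ATP synthase, rose by 1.23 ± 0.20, 1.11 ± 0.19 and 1.05 ± 0.21. Within the earlier runs 17 and 19 members of the 2 lists were called higher. Of 13 mitochondrially encoded genes 1, mt-Nd6, was called higher, and 7 members had no overlap between groups. Glycolysis and lactate export had 12 of 22 members called higher and 2 lower, with a median of 0.86. Tpi1, triosephosphate isomerase, rose by 2.27 ± 0.32, Gapdh by 1.99 ± 0.36, Ldha, which makes lactate, by 1.38 ± 0.23 and the lactate exporter Slc16a1 by 1.97 ± 0.32. The glucose transporter Slc2a1 and the dehydrogenase subunit Ldhb were called lower, at -0.61 and -0.73. Neither call held within the earlier runs, at adjusted p = 0.077 and 0.12.

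Mitosis had 34 of 35 members called higher and none lower, with a median of 1.73, and DNA replication 33 of 38 and none, with a median of 1.27. Plk1, a kinase that drives entry into mitosis, was at 8.96, 14, 8.96 and 9.21 CPM in normal samples and at 44.4 to 85.1 CPM (median 54.4) in Myc samples, with no overlap. Its log2 fold change was 2.48 ± 0.24 (SE), adjusted p = 6.32e-07. Cdc20, which activates the anaphase-promoting complex, Ccnb1, cyclin B1, and Kif20a, a kinesin of cytokinesis, rose by 2.53 ± 0.26, 2.77 ± 0.29 and 2.06 ± 0.22. Orc1 and Mcm10, which act at replication origins, rose by 2.98 ± 0.36 and 2.11 ± 0.28, and Gmnn, geminin, by 1.73 ± 0.24. The proliferation marker Mki67 rose by 1.80 ± 0.43, with an overlap: replicate 5 was at 264 CPM and normal replicate 2 at 401 CPM. Erythroid precursors also divide, and the erythroid sums were higher in every Myc sample than in any normal sample; their part in the mitosis genes was not tested. All Myc samples exceeded the highest normal sum for mitosis (3012 to 4986 against at most 1754 CPM).

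Of 26 G1 cyclins, kinases and inhibitors, 15 were called higher and 4 lower, with a median of 0.80. Cdkn2a, which encodes the inhibitors p16 and Arf, was at 0.28, 0.725, 0.22 and 0.564 CPM in normal samples and at 4.04 to 10.9 CPM (median 6.81) in Myc samples, a log2 fold change of 3.97 ± 0.43 (SE), adjusted p = 1.71e-06. Counts per gene do not separate its 2 products. Cdkn1a, the p21 inhibitor, rose from 4.36 to 7.94 CPM to 22.3 to 80.1 CPM (median 36.5), by 2.85 ± 0.39. E2f1 and E2f8 rose by 1.45 ± 0.22 and 2.11 ± 0.37, the kinase gene Cdk4 by 1.39 ± 0.26 and Ccnd3, cyclin D3, by 0.86 ± 0.24. The members called lower were Ccnd2, cyclin D2 (-1.13), Cdkn1b, the p27 inhibitor (-1.20), Rb1 (-0.77) and E2f5 (-0.66). Of these, Cdkn1b alone kept its call within the earlier runs. Ccnd3 also lost its call there, at adjusted p = 0.067.

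Trp53 did not pass the test, at 0.51 ± 0.21 (SE), adjusted p = 0.0568. Of 24 genes of the p53 list 10 were called higher and 2 lower, with a median of 0.35. Phlda3, an inhibitor of Akt, Zmat3 and Bbc3, which encodes the death protein Puma, rose by 2.50 ± 0.34, 1.45 ± 0.23 and 1.69 ± 0.30. Mdm2, which degrades p53, and Rrm2b, a ribonucleotide reductase subunit, were called lower, at -0.56 and -1.06. Mdm2 was not called within the earlier runs (adjusted p = 0.23). Of 16 Bcl2 family genes 6 were called higher and 2 lower, with a median of 0.46. Mcl1, a survival protein, was at 834, 648, 709 and 644 CPM in normal samples and at 152 to 390.1 CPM (median 265) in Myc samples, with no overlap and a log2 fold change of -1.39 ± 0.20. Bcl2a1b, another survival gene of the family, which has near-identical copies, changed by -1.01. Bcl2l1, the gene of Bcl-xL, rose by 2.22 ± 0.47 and Bcl2l11, the gene of the death protein Bim, by 2.05 ± 0.45. Bcl2l11 was at 46 to 578 CPM (median 286) in the Myc samples, and replicate 5 lay below all normal samples (66 to 85.4 CPM). Bcl2l1 is also made by red cell precursors, and the erythroid sums given above were higher in every Myc sample than in any normal sample. The part of erythroid RNA in the Bcl2l1 difference was not tested.

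Genes of B cell identity were lower in Myc lymphomas. None of 20 pan-B-cell genes was called higher and 15 were called lower, with a median of -1.56. In bulk RNA, fewer B cells and less RNA of these genes per cell cannot be told apart. Ms4a1, which encodes CD20, was at 1037, 853, 999 and 714 CPM in normal samples and at 67 to 268 CPM (median 155) in Myc samples, with no overlap. Its log2 fold change was -2.54 ± 0.29 (SE), adjusted p = 3.59e-06. Bank1, an adaptor of receptor signalling, Ralgps2 and the Toll-like receptor relative Cd180 changed by -2.25 ± 0.22, -2.16 ± 0.25 and -1.96 ± 0.24. Ptprc, which encodes CD45 including B220, changed by -1.12 ± 0.32, and its call was lost within the earlier runs (adjusted p = 0.091). Cd79a, a signalling chain of the receptor, did not pass the test (-0.82 ± 0.44 (SE), adjusted p = 0.14). It was lower in 7 of 8 Myc samples than in any normal sample and the highest of these 12 samples was replicate 5, at 1821 CPM. Vector lymphomas had Ms4a1 at 416 to 973 CPM.

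Receptor signalling genes followed, with 23 of 29 called lower, none higher, and a median of -0.95. Rasgrp3, an activator of Ras, was at 141, 116, 136 and 120.1 CPM in normal samples and at 2.58 to 35.5 CPM (median 18.2) in Myc samples, and changed by -2.77 ± 0.35. Bcl10, which links the receptor to NF-kB, and Cd22, an inhibitory coreceptor, changed by -0.87 ± 0.11 and -1.75 ± 0.23. Among 26 B lineage transcription factors 16 were called lower and none higher, with a median of -0.87, and within the earlier runs 10 were. Ebf1 and Spib changed by -1.58 ± 0.24 and -1.54 ± 0.28, Foxo1 by -1.18 ± 0.22 and Relb by -1.35 ± 0.19. Pax5, which holds B cell identity, changed by -1.13 ± 0.29 and was not called within the earlier runs (adjusted p = 0.06). Its levels were 203, 127, 143 and 139 CPM in normal samples and 29.9 to 128 CPM (median 68.1) in Myc samples, and replicate 5 overlapped the normal samples.

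Genes of mature B cell subsets held 4 of the 8 genes named for the smallest p among those called lower: Cr2, Dtx1, Cd1d1 and Icosl. Cr2, the complement receptor CD21, was at 585, 468, 652 and 482 CPM in normal samples and at 3.96 to 28.4 CPM (median 20.3) in Myc samples. The groups were far apart, with a log2 fold change of -4.88 ± 0.35 (SE), adjusted p = 2.58e-08. In the list of mature follicular genes 14 of 16 were called lower, none higher, and the median was -1.67. Icosl, a ligand for T cell help, Fcer2a, the receptor CD23, and Cd55, which restrains complement, changed by -2.48 ± 0.21, -2.37 ± 0.32 and -1.74 ± 0.25. Klf2, a factor of quiescence and homing, did not pass the test (-0.74 ± 0.37 (SE), adjusted p = 0.122). Of 16 marginal zone and B-1 genes 10 were called lower and 1 higher, with a median of -1.16. Dtx1, a Notch pathway gene of marginal zone cells, fell from 252 to 316 CPM to 28.9 to 74.7 CPM (median 52.8), a log2 fold change of -2.42 ± 0.20. Cd1d1, which presents lipids, the sphingosine phosphate receptor S1pr3 and Myof changed by -2.39 ± 0.20, -4.16 ± 0.40 and -3.14 ± 0.30. The member called higher, Mzb1, encodes a chaperone of immunoglobulin that plasma cells also make (1.77 ± 0.47). Other genes with the smallest p among those called lower were Ptpn14, a phosphatase (-3.45 ± 0.24), Trim7 (-2.62 ± 0.21), Nlrc4, of an inflammasome (-2.06 ± 0.16), and Ace, angiotensin-converting enzyme (-4.67 ± 0.36).

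**Figure D4:**
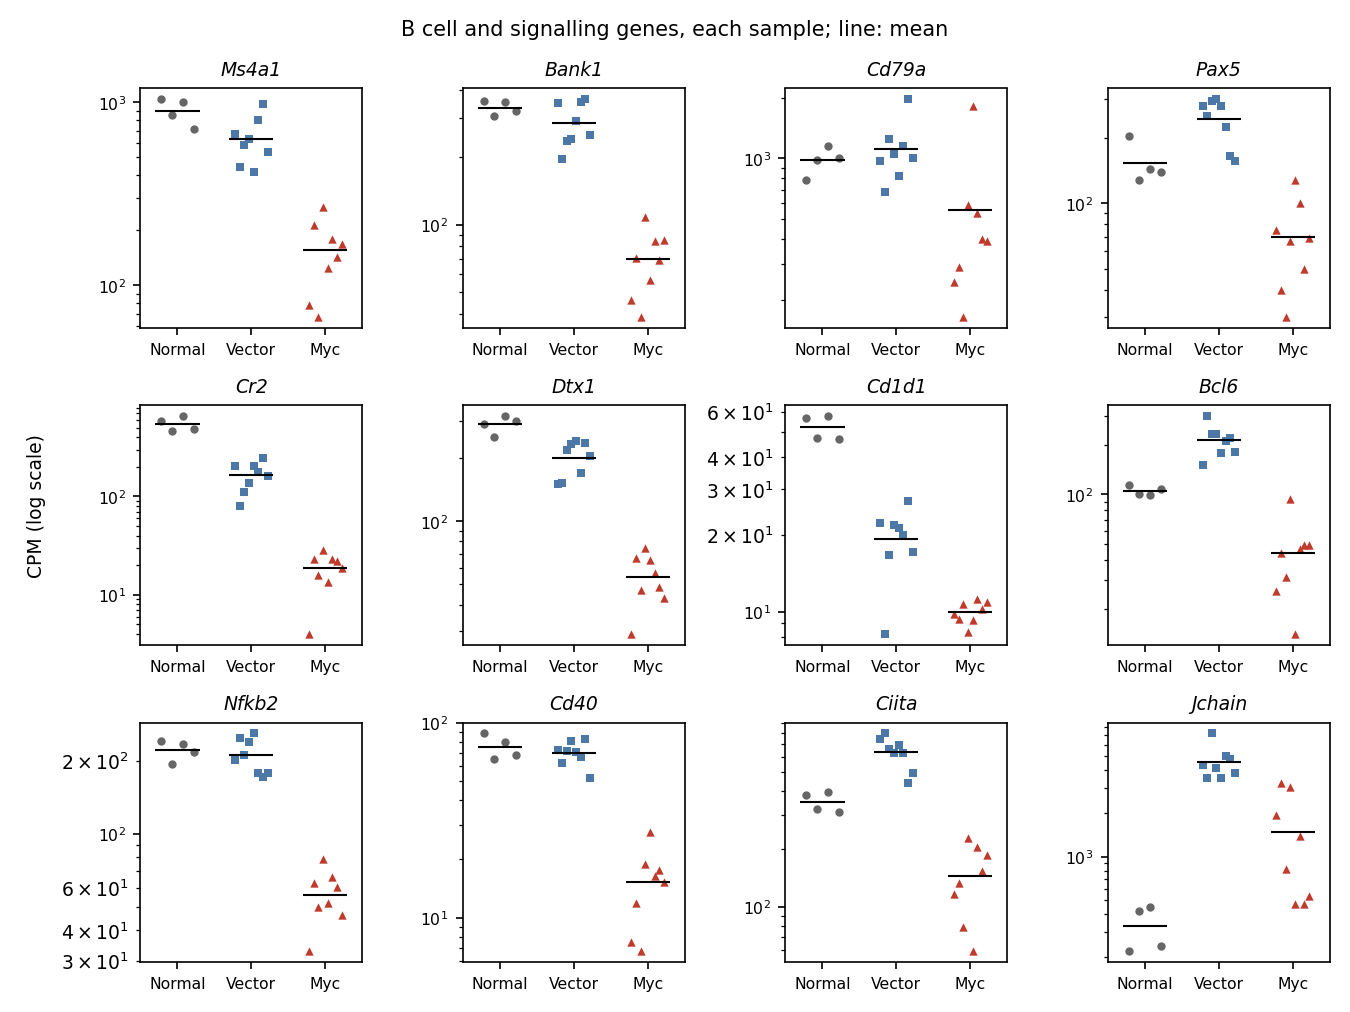
CPM on a log scale in each normal, vector and Myc sample for 12 genes of B cell identity and signalling, with a line at the group mean. Cr2 lies between 468 and 652 CPM in normal samples and between 3.96 and 28.4 CPM in Myc samples, while Cd79a overlaps between the groups and Jchain is higher in Myc samples.

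Germinal centre genes had 3 of 14 members called lower (Gpr174 at -1.82, Bach2 at -1.60 and Bcl6 at -1.25) and none higher, with a median of -0.06. The count called lower is near the share of all tested genes (17.9%), of which 21.5% were called higher. Without Myc replicate 2, or without Myc replicate 4, 5 germinal centre genes were called lower. Bcl6, the factor that sets the germinal centre state, was at 114, 100.1, 98.6 and 108 CPM in normal samples and at 14.1 to 93.2 CPM (median 45.2) in Myc samples. The signalling regulator Rgs13 did not pass the test (-1.36 ± 0.54 (SE), adjusted p = 0.051). Plasma cell genes had 10 of 16 members called higher and 1 lower, with a median of 1.16. Within the earlier runs 6 were called higher. Fkbp11, of the secretory pathway, rose from 1.21 to 3.11 CPM to 5.38 to 34.4 CPM (median 17.8), by 3.04 ± 0.49. Tnfrsf17, the receptor BCMA, and Jchain, which joins IgM and IgA multimers, rose by 2.85 ± 0.56 and 2.17 ± 0.52. Without normal replicate 2 the value for Tnfrsf17 was 3.48. Tnfrsf13b, the receptor TACI, was the member called lower (-0.82 ± 0.20). Early B cell genes had 4 of 18 called higher and 4 lower, with a median of -0.04. These counts are near the shares of all tested genes, 21.5% higher and 17.9% lower. Rag1, of V(D)J recombination, was at 2.82, 0.99, 0.973 and 0.543 CPM in normal samples and at 4.07 to 46.8 CPM (median 9.82) in Myc samples, and rose by 3.48 ± 0.70, or by 4.18 without normal replicate 1. Erg and Arpp21 rose by 2.47 ± 0.72 and 3.14 ± 0.71. Dntt, which adds bases at V(D)J joints, and Lef1 were called lower, at -1.59 and -1.81.

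Switched isotypes (Ighg1, Ighg2b, Ighg2c, Ighg3 and Ighe) held 3.32, 11.9, 3.18 and 4.72% of the counts of the 6 heavy constant genes analysed in normal samples. In Myc samples the share ranged from 9.53 to 78.7%, with a median of 42.6%. The lowest was replicate 5, the only Myc sample inside the normal range. The means were 44.3 ± 21.0% (SD, n = 8) and 5.78 ± 4.15% (SD, n = 4), and an exact two-sided permutation test gave p = 0.0101, or 0.0404 adjusted over 4 immunoglobulin measures. Leaving out any 1 of 7 samples (normal replicates 1, 3 and 4, Myc replicates 2, 3, 4 and 6) ended the call, at adjusted p from 0.055 to 0.073. The largest kappa V gene held 14.2 ± 5.42% (SD, n = 8) of kappa V counts in Myc and 8.55 ± 2.61% (SD, n = 4) in normal samples, with an adjusted exact permutation p of 0.175. For the largest heavy V gene the shares were 24.1 ± 8.64% and 18.3 ± 1.20%, and the adjusted exact permutation p was 0.222. Among light chain constant counts the lambda gene held 6.26 ± 5.16% in Myc and 10.7 ± 1.49% in normal samples, with an adjusted exact permutation p of 0.175. Replicate 5 was the highest Myc sample for lambda, at 18%, and without it the difference of -6.09 percentage points had an adjusted exact permutation p of 0.00606.

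Signalling and antigen presentation genes were lower as groups of different size. Of 20 NF-kB subunits and targets 15 were called lower and none higher, with a median of -0.999. Nfkb2, the subunit of the non-canonical pathway, was at 240.5, 193, 233 and 218 CPM in normal samples and at 32.8 to 78.9 CPM (median 56.2) in Myc samples, a log2 fold change of -1.98 ± 0.18 (SE), adjusted p = 3.69e-07. Nfkbie, an inhibitor of the pathway, and Cd40, the receptor for T cell help, changed by -1.89 ± 0.20 and -2.31 ± 0.26. Of 11 MHC class II presentation genes 5 were called lower and none higher, with a median of -0.73. Ciita, their shared activator, was at 383, 321, 398 and 310.1 CPM in normal and 58.9 to 227 CPM (median 144) in Myc samples, and changed by -1.28 ± 0.27. H2-Ob, H2-Eb2 and H2-DMb2 changed by -1.71 ± 0.24, -1.36 ± 0.18 and -1.03 ± 0.31. The call for H2-DMb2 was lost within the earlier runs (adjusted p = 0.067). Without Myc replicate 5, 10 of the class II genes were called lower, and within the earlier runs 3 were. MHC class I presentation had 7 of 16 called lower, none higher and a median of -0.45, and 2 were called lower within the earlier runs and 4 without normal replicate 1.

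Quiescence regulators had 10 of 22 members called lower and none higher, with a median of -0.81. Btg1, which restrains proliferation, was at 1146, 1015, 889.6 and 1462 CPM in normal samples and at 190.1 to 509 CPM (median 254) in Myc samples, and changed by -1.93 ± 0.24. Foxp1 changed by -1.04 ± 0.22. Homing and adhesion receptors had 11 of 21 called lower and 1 higher, with a median of -0.58, and 6 were called lower within the earlier runs and 7 without normal replicate 1. Cxcr5, which guides B cells to follicles, Ccr6 and S1pr1, which mediates exit from lymphoid organs, changed by -1.93 ± 0.29, -1.96 ± 0.31 and -1.79 ± 0.30. Ccr7, the receptor for T zone chemokines, changed by -2.29 ± 0.44, and by -1.70 without normal replicate 4, which was at 838 CPM. Cd47, a signal against phagocytosis, was the member called higher (0.77 ± 0.17). Immediate-early and dissociation genes had 7 of 18 called lower, none higher and a median of -1.13, led by Ier5 (-1.20 ± 0.26). The members summed to 6776 CPM in normal replicate 4 and to 1904 to 3317 CPM in the other normal samples. Without normal replicate 4, 4 members were called lower and the median was -0.4.

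Immune and chromatin lists had members called in both directions, as did all tested genes (21.5% higher and 17.9% lower). Of 20 costimulation, checkpoint and BAFF receptor genes 4 were called higher (Lag3, Pdcd1, Cd24a and Tnfrsf17) and 8 lower. Lag3 and Pdcd1, inhibitory receptors best known from T cells, rose by 1.70 ± 0.28 and 1.82 ± 0.44. The call for Cd24a was lost within the earlier runs (adjusted p = 0.12). Of 25 interferon response genes 3 were called higher and 6 lower, with a median of -0.26, and 3 were called lower within the earlier runs. Isg15 and Rsad2 rose by 2.95 ± 0.68 and 3.12 ± 0.65, while Ddx58, the RNA sensor RIG-I, and Gbp3 changed by -1.44 ± 0.27 and -1.28 ± 0.25. Isg15 was at 613 CPM in replicate 5 and between 22.8 and 252 CPM in the other Myc samples, and its log2 fold change was 2.23 without replicate 5. Of 22 DNA methylation and Polycomb genes 3 were called higher and 9 lower, with a median of -0.50, and 2 were called lower within the earlier runs and 3 without normal replicate 1. Uhrf1, which guides maintenance methylation, and Ezh2, the Polycomb methyltransferase of dividing cells, rose by 1.32 ± 0.25 and 0.66 ± 0.18. Ezh1, its counterpart in resting cells, Cbx7 and the demethylase Tet1 changed by -0.68 ± 0.18, -1.08 ± 0.25 and -1.93 ± 0.47, and the call for Ezh1 was lost within the earlier runs (adjusted p = 0.065). Dnmt1 (0.18 ± 0.27 (SE), adjusted p = 0.612) and Tet2 (-1.04 ± 0.44 (SE), adjusted p = 0.0626) did not pass the test.

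Genes recurrently mutated in B cell lymphoma had 13 of 31 members called lower and 3 higher, with a median of -0.57, and both within the earlier runs and without normal replicate 1, 8 were lower. Sesn3, a sestrin that restrains mTORC1, changed by -1.93 ± 0.27, while Sesn1 (-0.57 ± 0.29 (SE), adjusted p = 0.12) and Tnfrsf14 (0.05 ± 0.35 (SE), adjusted p = 0.92) did not pass the test. Of 22 unfolded protein and amino acid response genes 8 were called higher and 2 lower (4 higher within the earlier runs), with a median of 0.25, and the larger changes were in the amino acid arm. Chac1, a glutathione-degrading enzyme, and Trib3 rose by 3.10 ± 0.55 and 3.56 ± 0.64, beside Asns. Trib3 reached 50.6 CPM in Myc replicate 8, and its log2 fold change was 2.92 without that sample. Of 20 cholesterol genes 7 were called higher (4 within the earlier runs) and none lower, with a median of 0.38, led by Sqle (1.43 ± 0.22). Lysosome and autophagy genes had 5 of 29 called higher and 4 lower, with a median of 0.07. Both counts are below the shares of all tested genes, 21.5% higher and 17.9% lower. Wipi1, of autophagosome formation, rose by 3.07 ± 0.33 and Tfeb, the regulator of lysosomal genes, changed by -1.02 ± 0.21. Heat shock proteins and chaperonins had 8 of 23 called higher and 5 lower. Hspa1a, which has a near-identical copy, changed by -2.81 ± 0.68.

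Among the largest fold changes, several genes were near 0 in normal B cells. Kcnc4, a potassium channel gene, had 0 counts in the 4 normal samples and 0.645 to 8.68 CPM (median 5.3) in the Myc samples. Lingo3 had 1 count in the normal samples together and 3.94 to 16.3 CPM (median 5.91) in the Myc samples, and Ankrd36 had 3 counts and 0.775 to 12.7 CPM (median 6.26). Epha3, a receptor kinase, rose from 0.0209 to 0.141 CPM to 0.731 to 68.9 CPM (median 13), by 7.46 ± 1.15. Esrp1, a splicing regulator of epithelia, rose by 7.17 ± 1.19. The stefin genes of myeloid cells formed a block of near-identical copies. BC100530 had 3 counts and Stfa2 1 count in the normal samples together, against 4.82 to 123 CPM (median 52.6) and 1.14 to 28.9 CPM (median 20.5) in the Myc samples. Epx, eosinophil peroxidase, rose from 0.0418 to 0.569 CPM to 7.08 to 87.9 CPM (median 31.7), by 7.59 ± 1.13, and the eosinophil ribonuclease gene Ear1 by 7.04 ± 1.15. Without normal replicate 3 these 2 values were 8.78 and 8.11. Leaving out Myc replicate 3 gave 6.80 for Epha3. Without normal replicate 2 the other normal samples held 3 counts of Esrp1 together.

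Among the largest differences in the other direction were pancreatic digestive enzymes. Cel was at 52, 42.5, 17.9 and 23.8 CPM in normal samples, at 11.8 CPM in Myc replicate 6 and at 0 in the other Myc samples. Pnlip was at 114, 58.8, 27.8 and 39.1 CPM in normal samples, at 22.8 CPM in Myc replicate 6 and at most 0.602 CPM in the rest. Cela2a and Cela3b had the same 1 high Myc sample. The log2 fold changes were -4.54 for Cel, -4.36 for Pnlip, -4.41 for Cela2a and -4.31 for Cela3b, and their size depended on replicate 6. In the other 7 Myc samples Cel had 0 counts, against 7480 in the normal samples, which makes it at least 3040-fold lower (floor of 3 counts over the group). Pnlip had 20 counts there, Cela2a 11 and Cela3b 2, against 13217, 7099 and 3114 in the normal samples. None of these 4 calls held within the earlier runs (adjusted p from 0.08 to 0.11). Genes of the Klra receptor family, carried by NK cells, were also lower: Klra4 at -6.28, Klra13-ps at -4.32 and Klra8 at -3.80. Klra4 was at 9.68, 15.1, 9.11 and 6.04 CPM in normal samples and at most 0.688 CPM in Myc samples, and its log2 fold change was -7.27 without Myc replicate 5, the sample at 0.688 CPM. Members of this family have similar sequences, and reads may have been split between them. Cyp39a1, an oxysterol hydroxylase, and Tmie changed by -3.63 ± 0.39 and -3.63 ± 0.36.

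Other cell types' markers were higher or lower depending on the lineage. All 15 tested erythroid genes were called higher, with a median of 3.85, and 14 of 17 neutrophil genes, with a median of 3.77. Gata1 and Klf1, transcription factors of red cell precursors, rose by 3.87 ± 0.64 and 4.10 ± 0.79, the transferrin receptor gene Tfrc by 2.49 ± 0.39 and Car2, a carbonic anhydrase, by 3.68 ± 0.67. Klf1 was at 0.771, 16.2, 1.07 and 1.04 CPM in normal samples, highest in replicate 2, and at 37.1 to 191 CPM (median 69.9) in Myc samples. Without normal replicate 2 the log2 fold changes of Klf1, Gata1 and Car2 were 6.44, 5.05 and 5.43. Ngp and Camp, granule proteins of neutrophil precursors, rose by 4.21 ± 1.29 and 4.70 ± 1.29, Retnlg by 3.77 ± 0.98 and Cebpe, a factor of granule formation, by 4.61 ± 1.04. Without normal replicate 3 the values for Ngp, Camp and Cebpe were 5.33, 5.56 and 5.53. Without normal replicate 1, 5 neutrophil genes were called higher, and without normal replicate 4, 6.

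Of 20 T cell genes 8 were called lower and none higher, with a median of -0.56, led by Cd6 (-1.97 ± 0.27). Of 12 NK and cytotoxic genes 6 were called higher and 1 lower, with a median of 0.82. Both without normal replicate 1 and within the earlier runs, 3 were called higher. Ccl5, a chemokine, rose by 2.19 ± 0.52 and Prf1, perforin, changed by -1.20 ± 0.26. Plasmacytoid dendritic cells, which carry B220 as B cells do, had 4 of 11 markers called higher and 2 lower, and their summed markers overlapped (1056 to 1239 CPM in normal and 396 to 2473 CPM in Myc samples). Without normal replicate 1, 2 of them were called higher, and within the earlier runs 1. Conventional dendritic cell markers had 5 of 10 called lower and 1 higher, with Cd209a at -2.95 ± 0.37 and Clec9a at -2.11 ± 0.28. Of 14 macrophage and monocyte markers 4 were called lower and 1, Ly6c2, higher (2.95 ± 0.47). Without normal replicate 2, 2 were called lower. Cx3cr1, of resident monocytes, changed by -1.78 ± 0.26. Of 10 megakaryocyte markers 1 was called lower, and of 11 stromal and endothelial markers 2 were.

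**Figure D5:**
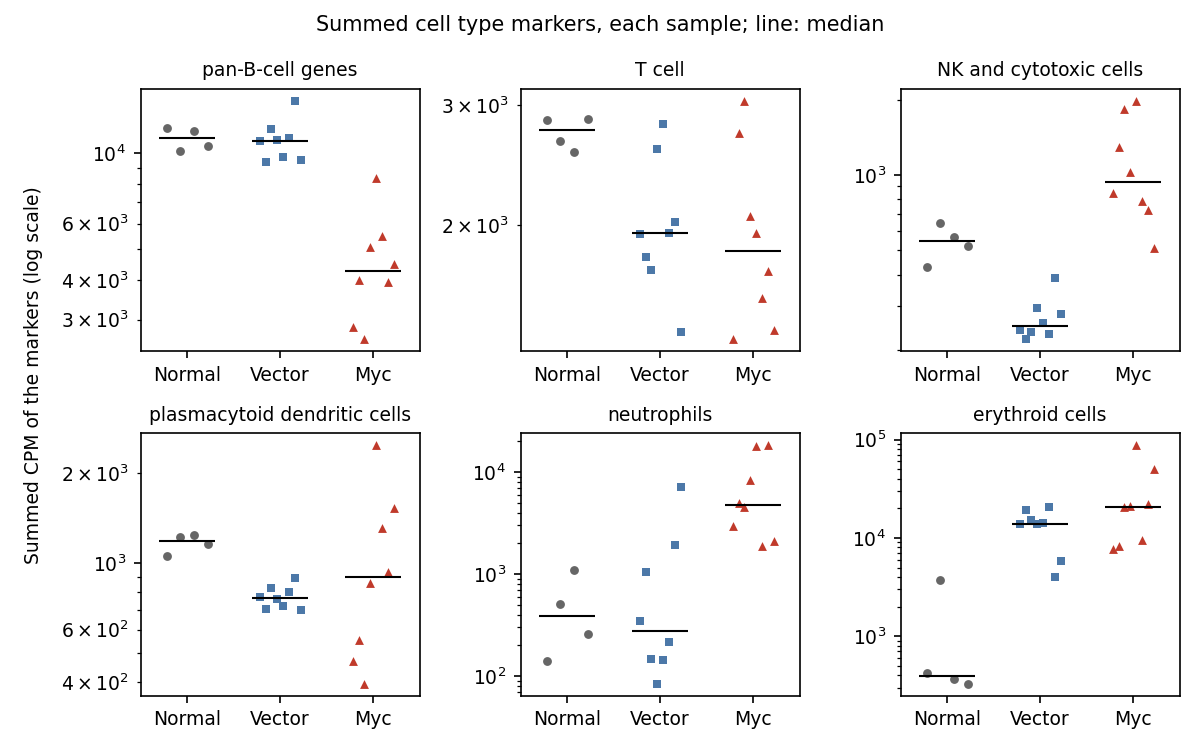
Summed CPM of the markers of 6 cell types on a log scale in each normal, vector and Myc sample, with a line at the group median. Pan-B-cell markers lie between 10180 and 11965 CPM in normal and between 2600 and 8330 CPM in Myc samples, and erythroid markers between 329 and 3753 CPM and between 7639 and 87699 CPM.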

How the data were processed

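The deposited table holds the authors' raw counts per Ensembl gene for each sample. HTSeq, BWA 0.7.5a and Picard 1.119 appear in the submitters' processing notes with the builds NCBIM37 and mm9, without role or order. Libraries were polyadenylated RNA sequenced on an Ion Proton, per the labels' protocols. The table has 37620 genes and 5 lines of unassigned reads, which stayed out of library sizes and tests. In the 12 samples compared, 38.1 to 57.0% of reads listed were counted to genes and 14.3 to 40.3% aligned to more than 1 place. Names came from a gene name table (32897 identifiers matched, 4723 did not).

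Genes were filtered with filterByExpr, scaled by TMM and fitted in all 20 samples and 3 groups with edgeR 4.0.16 (R 4.3.3, quasi-likelihood F test, two-sided, Benjamini-Hochberg over all genes tested). Standard errors (SE) of log2 fold changes were derived from the F statistics. DESeq2 1.42.0 was an alternative. The fit was also run on simulated data that gave every gene the same spread, with no outlying sample and no run effect. The data here differ in these respects, so the simulation cannot check the calls given above. Immunoglobulin shares used samples with at least 200 counts of a class. The members, the 47 gene lists and the tests were chosen with earlier results of these data known, so no list is independent evidence of its direction.

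Genes named were Myc and Bcl2, the 12 largest fold changes and 8 smallest p in each direction (called, at least 5 CPM in the higher group, no overlap, but no T cell receptor or immunoglobulin segments, predicted genes, genes without symbols, Xist and Y genes), up to 4 members of each list by p, members called against their list and a fixed set. Tyms, Nle1 and Mcm6 were named by the promoter rule. Some genes under these rules are not reported here. Where normal samples held 0 to 3 counts of a gene together, no fold change is given. Sequencing runs were read from run names in the labels.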

Additional observations from a re-analysis of the deposited data

Results flagged for a closer look

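In each group of 4 normal or 8 Myc samples, the values of the named genes, 5 summed lists and 4 immunoglobulin shares were checked for a highest or lowest sample whose gap to the nearest other sample was wide for the range of the group. Of 404 groups checked, 47 had such a sample. Chance gives about 1 in 20 for independent, normally distributed values, but the genes were measured in the same samples. A group with counts in a single sample is always flagged, so the rates cannot be compared. Myc replicate 5 was the sample in 22 of them. It was the highest Myc sample for summed cytosolic ribosomal proteins (249166 CPM), Rplp0 (13871 CPM), Nhp2 (413 CPM), Nop16 (154 CPM), Timm9 (52.4 CPM), Cdk4 (582 CPM), Ly6c2 (1488 CPM) and the lambda share (18%). It was the lowest for Ptprc (113 CPM), Rasgrp3 (2.58 CPM), Ccr6 (2.41 CPM), Gbp3 (12.1 CPM), Mnt (17.6 CPM), Sms (11.4 CPM), Rb1 (15.4 CPM), Mdm2 (22.7 CPM) and Rrm2b (5.72 CPM). It was also the lowest for Dnmt1 (73.6 CPM), Tet1 (0.645 CPM), Tet2 (2.19 CPM), Ezh1 (37.2 CPM) and Kcnc4 (0.645 CPM).

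Myc replicate 6 stood alone above the other Myc samples for the digestive enzymes Cel (11.8 CPM), Cela2a (12 CPM), Cela3b (5.73 CPM) and Pnlip (22.8 CPM). Myc replicate 7 was high for Erg (16.3 CPM), and replicate 4 for Lag3 (83.3 CPM) and Cx3cr1 (16.2 CPM) and low for Sat1 (69.7 CPM). Replicate 1 was high for Ctps (82.7 CPM) and low for Cr2 (3.96 CPM).

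Among normal samples, replicate 2 was high for summed erythroid markers (3753 CPM), Gata1 (13.2 CPM), Klf1 (16.2 CPM), Car2 (178 CPM), Plk1 (14 CPM), Mcm10 (15.3 CPM), Slc43a1 (32.4 CPM) and Lingo3 (0.0177 CPM, 1 count). Replicate 1 was high for Gart (96.8 CPM), Prodh (2.80 CPM), BC100530 (0.0526 CPM) and Stfa2 (0.0175 CPM). Replicate 3 was high for Ear1 (0.275 CPM), and replicate 4 was low for Ldha (227 CPM) and Epha3 (0.0209 CPM).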

How the results depend on the processing

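Counts of genes called ranged from 2940 to 3984 higher and from 2020 to 3464 lower when each sample was left out in turn, and the lowest values came without normal replicate 1. Within the earlier runs 2345 genes were called higher and 1475 lower, with 3 normal and 2 vector samples in that fit. DESeq2 called 4585 and 3385, and a fit of the 12 samples alone 3476 and 2394. At most 3 calls changed sign under any setting tried. Of 183 named genes called, 21 lost their call within the earlier runs, 14 without normal replicate 1, 6 in the 12 samples alone and 4 with DESeq2. With single samples left out, no named gene beyond those 14 lost its call. Signs turned for 3 genes that were not called: Bcl2 (0.15) and Dnmt1 (-0.04) with Myc replicates 5 to 8 alone, and Tnfrsf14 without Myc replicate 8, normal replicate 3 or normal replicate 4 (range with single samples left out, -0.12 to 0.25).

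Within the earlier runs the members called lower numbered 10 B lineage transcription factors, 2 DNA methylation and Polycomb, 2 MHC class I, 3 MHC class II, 8 lymphoma-mutated, 6 homing and 3 interferon response genes. Called higher there were 3 cytosolic ribosomal proteins, 17 oxidative phosphorylation, 19 mitochondrial translation, 4 mitochondrially encoded, 6 plasma cell, 4 cholesterol, 4 unfolded protein, 3 NK and 1 plasmacytoid dendritic cell genes. Mitochondrially encoded genes numbered 7 in the 12 samples alone and 8 with a run term. With Myc replicates 1 to 4 alone, 10 MHC class II, 12 interferon response and 7 macrophage genes were called lower, and 22 ribosomal protein and 1 plasmacytoid genes higher. With replicates 5 to 8 alone, 3 MHC class II, 4 MHC class I, 15 T cell, 6 germinal centre and 4 immediate-early genes were called lower, and 2 NK, 8 lysosome and 7 plasmacytoid genes higher. Leaving out normal replicate 1 and Myc replicate 5 together, chosen after seeing the data, gave 10 MHC class II genes lower, and 19 ribosomal protein and 3 neutrophil genes higher. Of all genes tested, 19.2% were called higher and 18.7% lower with Myc replicates 1 to 4 alone. With replicates 5 to 8 alone the shares were 22% and 18%, and with the joint omission 17.2% and 15.1%. Without normal replicate 2 they were 18.1% and 14.4%, and without normal replicate 4, 16.9% and 13.5%.

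With single samples left out, the ranges were 19 to 40 for cytosolic ribosomal proteins, 5 to 14 for neutrophils, 3 to 6 for NK and 2 to 5 for plasmacytoid genes called higher. For members called lower they were 3 to 11 for DNA methylation and Polycomb, 4 to 8 for MHC class I, 4 to 10 for MHC class II, 8 to 16 for lymphoma-mutated, 3 to 5 for germinal centre, 7 to 11 for homing, 4 to 9 for immediate-early and 2 to 5 for macrophage genes. The switched share differed by 33.6 to 43.4 percentage points, and by 37.7 within the earlier runs (adjusted exact permutation p = 0.073). The lambda share differed by -6.09 to -3.71 points. Causes of these shifts were not tested. Sample titles end in numbers that recur across groups, and nothing in the labels says that equal numbers mark a shared animal, litter or day. Over the 7 pairs of a normal and a Myc sample with the same number, deviations from the group means were correlated across genes. The correlations ran from -0.34 to 0.29, 2 of the 7 over 0.1. Deviations from the mean of a few samples depend on each other, so these values cannot decide whether equal numbers mark a shared origin. With that number as a replicate block, a fit added after seeing the data, 3082 genes were called higher and 3067 lower, 3 named genes lost their call, and 18 ribosomal protein, 6 neutrophil and 2 plasmacytoid genes were called higher and 5 germinal centre genes lower. Of 7 Myc samples, 2 correlated best with the normal sample of their own number. Gene counts of 33.5 to 52.9 M limit the lowest genes. The run of normal replicate 1, sex and other cells' RNA limit what the group difference can be read as. So does the larger share of reads aligned to more than 1 place in the Myc samples.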
